A study of Mus musculus with 12 samples.

Results

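The metabotropic glutamate receptors and their Homer scaffolds were followed in injured spinal cord, taken 14 days after male ApoE4 mice received a contusion at thoracic vertebra 9. The set was fixed by name as GRM2, GRM3, GRM4, GRM5, GRM7, GRM8, HOMER1, HOMER2 and HOMER3, whatever their values. Of these 9 genes, 8 were among the 13957 genes listed at either site, with 8 listed above the lesion and 7 below. GRM2 was listed at neither site and GRM4 only above the lesion, so 7 genes could be set side by side at both sites. The RNA came from cord segments just rostral (above) or caudal (below) of the lesion, in 4 groups of 3 libraries each. All mice carried human ApoE4, were operated on at 4 months of age and had the contusion. The synj1+/+ labelled group had both normal alleles of synaptojanin 1 and the synj1+/- labelled group carried an inactive allele beside a normal allele. No uninjured or ApoE3 library was used here.

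Metabotropic glutamate receptors are G protein coupled receptors that tune synapses more slowly than the ion channel receptors for glutamate. Group I, to which GRM5 belongs, lies mostly on the postsynaptic side and acts through Gq, phospholipase C and calcium released from internal stores. Group II (GRM2 and GRM3) and group III (GRM4, GRM6, GRM7 and GRM8) act through Gi/o proteins and, apart from GRM6, mostly lower transmitter release. GRM3 and GRM5 are also found in astrocytes, and GRM6 is known from the retina. Homer proteins are postsynaptic adaptors whose EVH1 domain grips a short proline-rich ligand in group I receptors, Shank proteins and the inositol trisphosphate receptor. Long Homers join in a coiled coil and tie these partners together, and a short, activity-induced HOMER1 form lacks the coiled coil.

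The Homer ligand is the sequence feature that links GRM5, the group I receptor of the set, to the Homer scaffolds. The coding bases around it are shown for GRM5 and for the calcium channel ITPR1. Capitals mark the 5 codons that read proline, proline, any residue, any residue, phenylalanine, with 15 coding bases in lower case on each side, from GENCODE M21 transcripts on GRCm38.
GRM5: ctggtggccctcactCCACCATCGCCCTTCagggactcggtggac
ITPR1: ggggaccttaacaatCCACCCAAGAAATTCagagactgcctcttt
The GRM5 ligand lies in exon 9 of 9, at chr7:88130723-88130737 on the plus strand, and 43 codons follow it. The ITPR1 ligand begins at codon 49 of 2749, in exon 4, at chr6:108241316-108241330 on the plus strand. Over 1 coding sequence for each of 21643 genes, 6.93% held these residues anywhere and 0.615% held them within the last 48 codons. That window just reaches the start of the GRM5 ligand, so the 0.615% is fitted to that match. GRM3, GRM4 and GRM8 held no match, and neither did the 3 Homers. GRM2 and GRM7 each held 1 match, at codons 186 and 200, far from the end of the coding sequence. Whether Homer binds at either match was not tested.

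The deposited table gives 1 value per gene and group, combined over the 3 libraries, so no spread between mice and no test could be computed, and every difference below is a description of these 4 group values. Values were read as FPKM (fragments scaled by transcript length and by the upper quartile of each library) after taking off the 1 that is built into the table. Ratios are for the synj1+/- labelled group over the synj1+/+ labelled group, and log2 ratios are on the log2(FPKM + 1) scale, which understates the change of a low gene. A gene was counted as higher or lower at a ratio of at least 1.2-fold. The depth of each library is not given with the values, and the authors thinned the libraries of each site to the smallest one. SYNJ1, the gene targeted by the genotype, had a higher value in the synj1+/- labelled group at both sites, with 1904 (synj1+/+) against 2403 FPKM (synj1+/-) above the lesion and 1846 against 2592 FPKM below. This runs against the labels, so each direction rests on the labels as given. APOE read 766 and 548 FPKM above and 476 and 563 below, in the same order. Reads were aligned to the mouse genome, so how well this value measures the human ApoE4 transcript is unknown. The median log2 ratio over all genes was -0.0039 above and 0.014 below.

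The receptors and scaffolds spanned a wide range of levels per length. Above the lesion, in both groups, the order from high to low was HOMER3, GRM7, GRM4, GRM5, HOMER1, GRM8, HOMER2 and GRM3, from 218 FPKM for HOMER3 to 7.99 FPKM for GRM3 in the synj1+/+ labelled group. Below the lesion the order without GRM4 was the same in the synj1+/- labelled group, whereas in the synj1+/+ labelled group HOMER2, at 18.1 FPKM, stood just over GRM8, at 17.2 FPKM. HOMER1 exceeded GRM8 by only 1.09-fold above the lesion in the synj1+/+ labelled group, and whether such neighbours differ cannot be judged without a spread. GRM7 was the highest receptor in every group, at a level over that of 84.5% of all genes below the lesion and 86.0% above it. GRM3 was the lowest member in every group, over 17.1% of genes above and 17.5% below. Levels between genes carry a further limit. Across 13449 genes above the lesion, which share the same libraries, the level went with the number of GENCODE transcript models per gene (Spearman's rho 0.50, a description across genes), and the listed members range from 1 model for GRM3 to 12 for HOMER1.

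**Figure D1:**
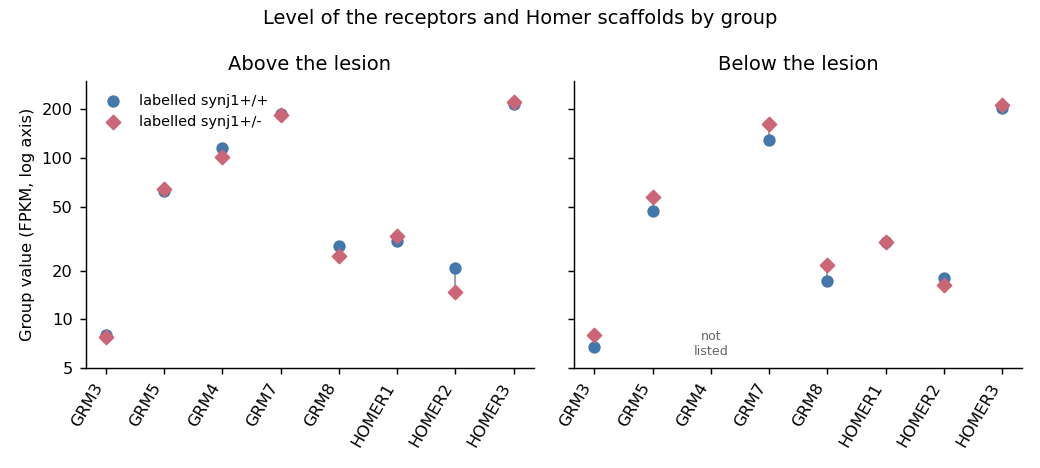
Group values of the 8 listed members in FPKM (log axis), above the lesion (left) and below it (right), with circles for the synj1+/+ labelled group and diamonds for the synj1+/- labelled group. Each symbol combines 3 libraries and has no error bar because no single-library values were used. GRM3, GRM5, GRM7 and GRM8 have the diamond on top below the lesion, and GRM4 is listed only above it.

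Below the lesion all 4 listed receptors had a higher value in the synj1+/- labelled group, as did 52.8% of all genes. Among the 4, GRM5, GRM7 and GRM8 passed 1.2-fold. Over all 7 members listed there, 3 were higher and 0 lower by that rule, where 12.6% of all 12338 genes were higher and 14.9% lower (27.6% in either direction). The median log2 ratio of the 7 members was 0.21. Above the lesion, 0 of 8 members were higher, where 6.62% of all 13647 genes were, and 1 of 8 was lower, where 10.5% of all genes were (17.2% in either direction). The median log2 ratio of the 8 members above was -0.03. No member reached 1.5-fold at either site. Of all genes above the lesion, 0.791% were higher and 1.94% lower by 1.5-fold (2.73% in either direction), and below it 1.16% were higher and 4.38% lower (5.54% in either direction).

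Among group I receptors, GRM5 was the only member. Its gene spans 551 kb of chromosome 7 (chr7:87584168-88134907, plus strand, GRCm38), and it drives the Gq and calcium response and is held by Homer at the ligand printed for it. GRM5 read 47.0 FPKM in the synj1+/+ labelled group and 56.9 in the synj1+/- labelled group below the lesion, a log2 ratio of 0.27, just past the 1.2-fold mark. Above the lesion it read 62.4 and 63.8 FPKM, a log2 ratio of 0.03. The genotypes were thus close for GRM5 above the lesion and farther apart below, where 11.8% of all genes had a higher ratio. With 5 in place of 1 as the pseudocount its ratio below was 0.25 on the log2 scale, and centred on the median of all genes 0.26, both under the 1.2-fold mark.

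Group II was represented by GRM3 alone, a receptor of neurons and astrocytes that lowers cyclic AMP (chr5:9485541-9725170, minus strand). GRM3 read 7.99 FPKM in the synj1+/+ labelled group and 7.75 in the synj1+/- labelled group above the lesion. Below it GRM3 read 6.74 and 7.95 FPKM. The 4 values lie close together, and the log2 ratios were -0.04 above and 0.21 below, both under the 1.2-fold mark. Its partner in group II, GRM2, was not listed at either site and has no value here.

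The group III receptors GRM7 and GRM8, which sit at release sites and act as brakes on transmitter release, gave the largest differences between the sites. GRM7, encoded over 922 kb of chromosome 6 (chr6:110645581-111567230, plus strand), read 187 and 186 FPKM in the synj1+/+ and synj1+/- labelled groups above the lesion, a log2 ratio of -0.01. Below it GRM7 read 130 and 163 FPKM, a log2 ratio of 0.33. The value of GRM7 was thus nearly equal between the genotypes above the lesion, and below it the synj1+/- labelled group stood higher, with 7.69% of all genes at a higher ratio.

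GRM8 (chr6:27275119-28135178, minus strand) was the member whose log2 ratio moved most between the sites. It read 28.3 and 24.6 FPKM above the lesion, a log2 ratio of -0.20, and 17.2 and 21.8 FPKM below it, a log2 ratio of 0.33. The synj1+/- labelled group was therefore the lower above, short of 1.2-fold, and the higher below. GRM4 (chr17:27422387-27521403, minus strand), which has the same Gi/o coupling, was listed only above the lesion, at 115 and 101 FPKM and a log2 ratio of -0.19. Its log2 ratio there was close to that of GRM8.

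The Homer scaffolds had log2 ratios between -0.14 and 0.07 below the lesion, beside 0.21 to 0.33 for the 4 receptors, a difference that was not tested. HOMER1 (chr13:93299635-93405129, plus strand), the scaffold with both long and short forms, read 30.8 and 32.9 FPKM above and 30.2 and 29.9 below in the synj1+/+ and synj1+/- labelled groups. The log2 ratios were 0.09 and -0.01, and the table sums its forms, so the short form cannot be read apart from the long ones. HOMER3 (chr8:70282827-70294361, plus strand), the highest member, read 218 and 222 FPKM above and 205 and 214 below, with log2 ratios of 0.03 and 0.07. HOMER1 and HOMER3 thus stood close to equal between the genotypes at both sites.

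HOMER2 (chr7:81600481-81707527, minus strand), the remaining long scaffold, was the only member past 1.2-fold above the lesion and had the ratio farthest from 1 in the set. It read 20.8 FPKM in the synj1+/+ labelled group and 14.8 in the synj1+/- labelled group, a log2 ratio of -0.46, and 3.40% of all genes had a lower one. Below the lesion HOMER2 read 18.1 and 16.4 FPKM, a log2 ratio of -0.14. Of the 7 members listed at both sites, HOMER2 was the only one with the lower value in the synj1+/- labelled group at both.

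**Figure D2:**
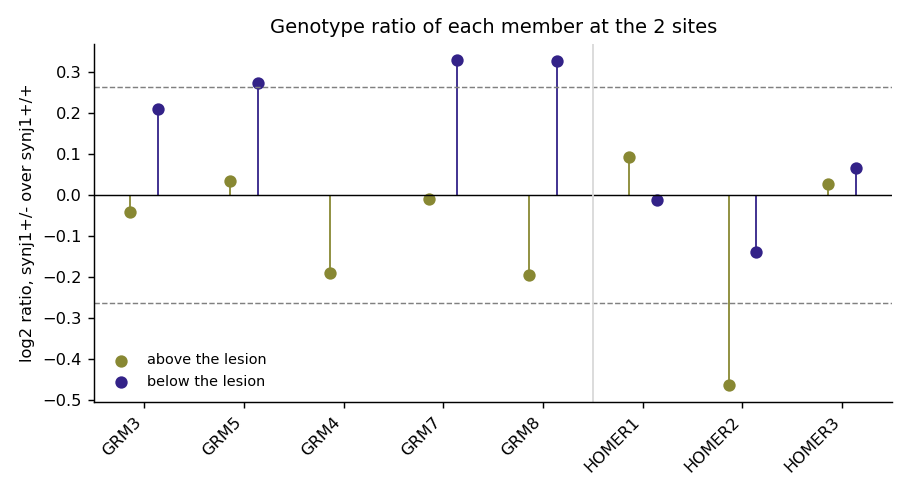
Log2 ratio of the synj1+/- labelled group over the synj1+/+ labelled group for each member (vertical axis), above the lesion (olive) and below it (dark blue), with receptors left and Homers right of the grey line. Dashed lines mark 1.2-fold. GRM5, GRM7 and GRM8 pass it below the lesion and HOMER2 passes it downward above the lesion, and GRM4 has no point below.

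The change below minus the change above, on the log2 scale, was positive for 6 of the 7 members listed at both sites, against 53.9% of 12025 genes with values above and below. It was 0.52 for GRM8, 0.34 for GRM7, 0.32 for HOMER2, 0.25 for GRM3, 0.24 for GRM5, 0.04 for HOMER3 and -0.10 for HOMER1. The median was 0.25, against 0.02 over all genes. The sites were scaled separately, and by the paper's count of RNA-seq animals the same mice are likely to have given both segments. With 1 value per group the difference could not be tested. In level, the 4 receptors listed at both sites were lower below the lesion than above it in the synj1+/+ labelled group. So were HOMER1, HOMER2 and HOMER3, and the limit on scaling across sites applies to all. The median over the genes listed at each site was also lower in that group, at 31.6 FPKM below against 35.5 above.

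Cell type markers also differed between the labelled groups. Below the lesion all 5 listed of 8 neuron markers had a ratio over 1, with a summed level of 6933 FPKM in the synj1+/+ labelled group and 8892 in the synj1+/- labelled group and a median log2 ratio of 0.19. Of those, SYT1 and SNAP25 passed 1.2-fold, and RBFOX3, ELAVL4 and ENO2 were not listed. Above the lesion, 5 of 7 listed neuron markers had a ratio over 1, at 9017 and 10370 FPKM in sum and a median of 0.12. Of all genes, 52.8% had a ratio over 1 below the lesion and 49% above it. The 4 receptors listed below the lesion had log2 ratios over the neuron median there. Their ratios of 1.16 to 1.26 were, however, under the ratio of the summed neuron markers, 1.28. Above the lesion all 5 listed receptors were under the neuron median. RBFOX3 and ELAVL4 were listed only above, so the 2 medians rest on different markers. In bulk tissue, more cells of a type and more RNA per cell cannot be told apart.

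Summed glial and fibroblast markers had lower values in the synj1+/- labelled group at both sites, and the hemoglobin genes had higher ones. The summed astrocyte markers read 18411 and 15436 FPKM above and 16332 and 12989 below, with a ratio under 1 for 7 of 8 and 7 of 7 listed genes, and GFAP and AQP4 past 1.2-fold at both sites. Oligodendrocyte precursor markers summed to 249 and 223 FPKM above and 157 and 131 below. Microglia and macrophage markers summed to 1117 and 829 above, where 4 of 8 were lower, and 1286 and 863 below, where 6 of 6 were. Fibroblast markers summed to 27.0 and 16.3 FPKM above and 349 and 43.5 below, with 5 of 5 lower at each site. Each fibroblast gene read under 10 FPKM above the lesion. By the same 1.2-fold rule 10.5% of all genes were lower above and 14.9% below. The hemoglobin genes of red blood cells summed to 246 and 1122 above and 625 and 818 below. The 3 listed oligodendrocyte markers (MBP was not listed) summed to 11695 and 11220 above and 10970 and 10318 below. MOBP made up most of these sums, at 10915 and 10551 FPKM above and 10365 and 9723 below. MOG alone of the 3 had a ratio over 1 below, at 205 and 230 FPKM. Endothelial markers summed to 153 and 166 above and 193 and 186 below. Skeletal muscle markers were not listed above, and 2 of 5 were listed below, at 6.06 and 7.45 FPKM in sum. The part of these cells in the ratios of GRM3, GRM5 or the other members was not tested.

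**Figure D3:**
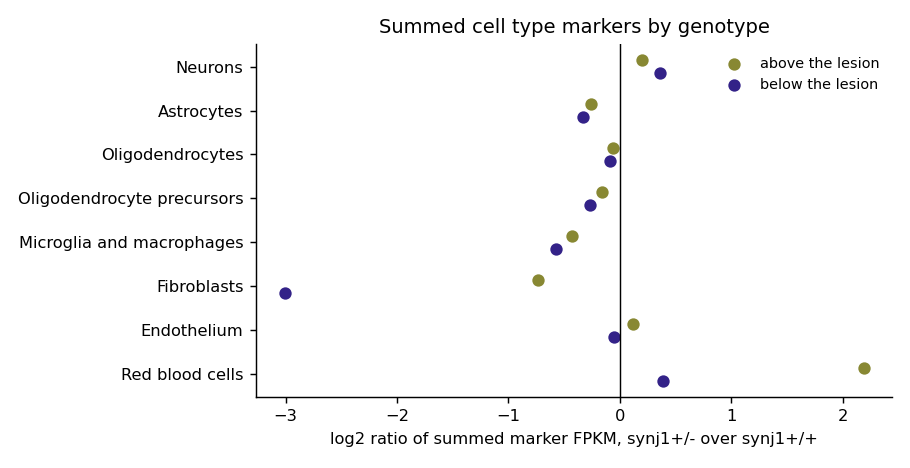
Log2 ratio of the summed FPKM of each marker list, synj1+/- labelled group over synj1+/+ labelled group (horizontal axis), above (olive) and below (dark blue) the lesion. Neuron markers lie right of 0 at both sites, astrocyte, microglia and fibroblast markers lie left, and the hemoglobin genes above the lesion and the fibroblast markers below it lie farthest out.

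The genes around the receptors were listed by role in 5 lists of 70 symbols, of which 2 are second names of listed genes. Above the lesion 5 of 67 listed genes were higher and 4 lower, where all genes gave 6.62% and 10.5%. Below the lesion 18 of 57 were higher and 0 lower, where all genes gave 12.6% and 14.9%, and the median log2 ratio was 0.19. The 2 comparisons of a gene rest on different libraries, likely of the same mice, and members of a list are not independent of each other.

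In the Gq arm of group I receptors, 2 of 13 listed genes were higher above the lesion and 2 of 10 below. The shares of all genes were 6.62% and 12.6%. PLCB4, a phospholipase C, was higher at both sites. PLCB4 read 453 and 551 FPKM above and 443 and 551 below, with log2 ratios of 0.28 and 0.32. The other 8 listed genes below were under 1.2-fold, and RYR2, a calcium release channel, was the only gene of the list that was lower, at a log2 ratio of -0.28 above. ITPR1, whose ligand is printed for comparison, read 99.4 and 82.7 FPKM above and 110 and 98.9 below, with log2 ratios of -0.26 and -0.15, both under 1.2-fold.

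In the Gi/o arm of group II and III receptors, 8 of 17 listed genes were higher below the lesion and 0 lower, with a median log2 ratio of 0.25. Of all genes, 12.6% were higher and 14.9% lower below, and 6.62% and 10.5% above. Above the lesion 1 of 21 was higher, the N-type calcium channel gene CACNA1B at 0.30, and 2 were lower, the adenylyl cyclase gene ADCY1 at -0.29 and KCNJ6 at -0.43. KCNJ6, a subunit of the potassium channels that Gi/o proteins open, read 16.4 and 11.9 FPKM above and 8.62 and 13.6 below, where its log2 ratio was 0.60. ADCY1 read 14.5 and 11.7 FPKM above and 11.0 and 13.5 below, where its log2 ratio was 0.28. Both genes thus passed 1.2-fold at each site in opposite directions, and GRM8 had opposite signs without passing it above. RGS7 and RGS8, which speed the shut-off of Gi/o proteins, had log2 ratios of 0.43 and 0.51 below and of -0.03 and -0.01 above. RGS7 read 143 and 194 FPKM below, and RGS8 read 76.9 and 109.9.

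The Homer-Shank scaffold list gave 0 of 12 genes past 1.2-fold above, beside 17.2% of all genes. Below the lesion 2 of 10 were higher, beside 12.6% of all genes. They were DLGAP3, which links PSD-95 to Shank, at 188 and 242 FPKM and a log2 ratio of 0.37, and SHANK2, which carries Homer ligands, at 182 and 220 FPKM and 0.27. All 10 listed genes had a ratio over 1 below the lesion, as did 52.8% of all genes. The median log2 ratio of the 10 was 0.22, while the Homers themselves had a median of -0.01. Among partners that bind the receptors, 4 of 12 were higher below and 1 of 13 above, beside 12.6% and 6.62% of all genes. ELFN1, an adhesion protein that binds group III receptors across the synapse, read 81.5 and 113 FPKM below, a log2 ratio of 0.46, and 105 and 112 above, a log2 ratio of 0.10. NECAB2 and NCDN (neurochondrin), both GRM5 partners, had log2 ratios of 0.42 and 0.35 below, and NECAB2 was also higher above, at 0.33.

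Among genes of glutamate supply and clearance, the astrocytic transporter gene SLC1A2 was lower above the lesion, at 1651 and 1359 FPKM and a log2 ratio of -0.28, and its ratio below was -0.18. The neuronal transporter gene SLC1A1 was higher below, at 17.1 and 21.1 FPKM and 0.29. SLC17A7, which loads glutamate into vesicles, also passed the fold at both sites but at under 3 FPKM in every group, and it is named after its values were seen.

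**Figure D4:**
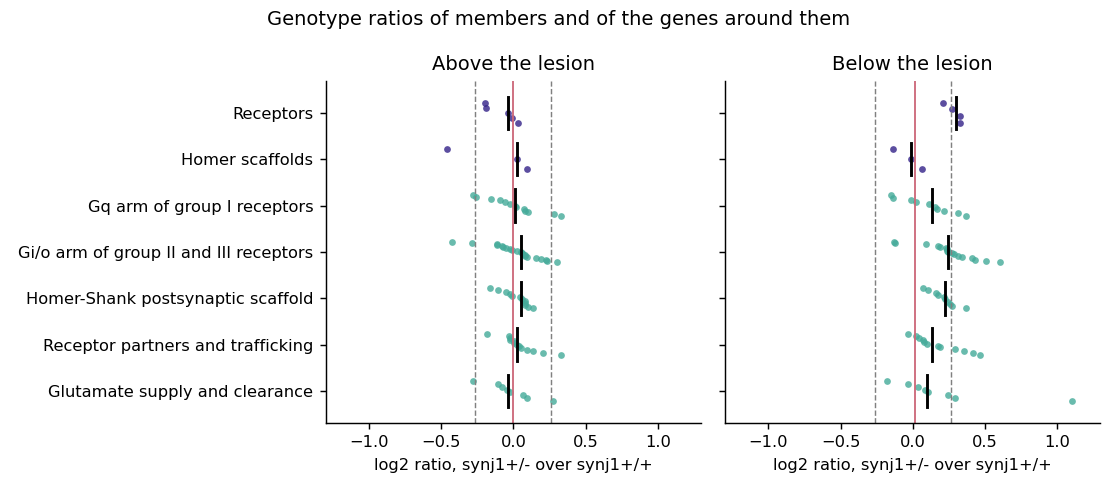
Log2 ratios of single genes (points) for the receptors, the Homers and the 5 lists of genes around them, above (left) and below (right) the lesion, with a black bar at each median, dashed lines at 1.2-fold and a red line at the median of all genes. Below the lesion the receptors and the Gi/o list sit right of the other medians, with medians of 0.30 and 0.25, and the Homers stay at -0.01.

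Set beside the 18 ionotropic glutamate receptor subunits (AMPA, NMDA, kainate and delta), a list added after the data were seen, the metabotropic receptors had a like median below the lesion, at 0.30 over 4 genes against 0.24 over 13. Above the lesion the medians were -0.04 over 5 genes and 0.02 over 17. The difference between the families was not tested.

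The genes nearest to a member in its pair of log2 ratios, among 9484 genes with a mean value of 10 or more at both sites, were sought for the 7 members listed at both. They were PHF21B and GM1043 for GRM8, NEIL1 and VTA1 for GRM7, ABCA5 and ATG10 for GRM5 and OPRK1 and PPTC7 for GRM3. For HOMER1 they were NDFIP2 and ZFP873, for HOMER2 FNDC1 and EMILIN2, and for HOMER3 RAB28 and FOLH1. Likeness was the Euclidean distance over the 2 log2 ratios, which ranged from 0.00045 (RAB28) to 0.0096 (EMILIN2), and it rests on 2 comparisons only.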

How the data were processed

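Paired-end RNA-seq libraries were made by the authors from 12 samples, thinned at random per site to the smallest library, aligned and summarized with upper quartile normalization. The submitters' processing notes name STAR 2.5.4b, Cuffdiff 1.3.0 and GRCm38.p6. The authors' deposited table holds a value per gene and group, whose unit it does not name. It was read as FPKM plus 1, since the lowest value is exactly 1. Its columns of fold changes, p-values and q-values are the authors' own comparison and were not used, nor was their shorter list. Samples were grouped by title.

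Ratios of the group values were computed for all rows and counted at 1.2-fold. The members, lists and markers were chosen with earlier results of these data known. Genes named from a list passed 1.2-fold with a mean value of 10 or more, at most 3 per direction and site. SYNJ1 and APOE were named by rule, and some genes the rule names are not reported here. GRM6 was not listed. Alternatives were other pseudocounts, centring, 1.5-fold, a filter on low values and the mean. The code for ratios and counts was checked on group values multiplied by known factors without noise, which says nothing of variation between libraries. Python 3.11.15, numpy 2.4.6, pandas 2.3.3, scipy 1.17.1 and matplotlib 3.10.9 were used. Coordinates come from GENCODE M21.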

Additional observations from a re-analysis of the deposited data

How the results depend on the processing

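A threshold of 1.5-fold left 0 of the 3 members higher below the lesion and 0 of the 1 lower above it. Under no pseudocount, a pseudocount of 5, centring on all genes and the filter at a mean value of 10, the counts of members past the fold stayed within 1.5 times, the lowest being 2 higher below the lesion, without GRM5. The median log2 ratio of the members ranged from -0.09 to -0.01 above and from 0.14 to 0.24 below over these alternatives and the mean. The median change below minus above, under alternatives chosen after seeing the data, ranged from 0.22 to 0.28. No member changed sign. No paired analysis was possible because only values merged over the 3 libraries were used, and for the same reason no result could be computed without each replicate and the precision of a value is unknown.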
